A study of Brassica rapa and Brassica oleracea and Brassica napus with 3 samples.

Results

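DNA methylation along the genes of the *B. rapa* genome was examined in 1 BS-seq library of young leaves. Members were the gene rows of that library whose identifier, without its prefix, names a chromosome from A01 to A10 and the 4.1C gene annotation of *B. rapa*. This rule took 47521 of the 206587 gene rows of the whole series, and used no measured value.

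The study compared *B. rapa* (cultivar Chiifu in the methods, spelled Chiffu in the labels), *B. oleracea* (JZS) and the allotetraploid *B. napus* (ZS11), which carries an A and a C subgenome, An and Cn. Each species had 1 BS-seq library, so there is no replicate of any level and no test was made between genomes. The labels give no treatment, transgene or mutation for any of the plants, which were grown hydroponically and were 14 d old in the labels and 2 weeks old in the methods. How many plants went into a library is not given in the sources used here. For *B. rapa* the protocol attached to the labels describes formaldehyde fixation, while the methods describe bisulfite treatment of extracted genomic DNA. Leaf identity cannot be checked with marker genes here, because the files hold methylation and no expression.

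Cytosine methylation in plants is found in the CG, CHG and CHH contexts, where H is any base other than G. MET1 maintains CG methylation after replication, CMT3 maintains CHG methylation together with histone H3K9 methylation, and CHH methylation depends on CMT2 and on the RNA-directed pathway that ends in DRM2. Dense methylation in all contexts is known from transposable elements and pericentromeric chromatin, whereas methylation of transcribed genes is mostly in the CG context and low at both gene ends. BS-seq reads unmethylated cytosines as thymines after bisulfite conversion and methylated cytosines as cytosines. The deposited values do not separate the contexts, so a level below is the methylated share over the cytosines that the authors counted.

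For each gene the file gives 12 values from 0 to 1, converted here to percent. Comparison with the untranslated regions (UTRs) fixed their layout. For 99.98% of 45448 transcripts, the 4 upstream values recurred in at least 1 of their 5′ UTR rows. The 4 downstream values did so for 0.018% of 45560 transcripts. Only transcripts with a value above 0 in the flank compared were counted. Bins 1 to 4 are therefore the upstream flank, bins 5 to 8 the gene body and bins 9 to 12 the downstream flank, counted from the 5′ end of the gene. The legend of the study gives flanks of 2 kb, which can reach into neighbouring genes. Regions with values in fewer than 2 of their 4 bins were left out, and the remaining bins were averaged to give the level of a region.

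Values were present in most bins of the *B. rapa* genes. Of the gene body bins 7.33% had no value, compared with 5.03% of upstream and 4.98% of downstream bins. By bin, the share without a value ran from 3.88% just upstream of the gene start (bin 4) to 7.64% in the second gene body bin (bin 6). Missing values were thus more frequent inside genes than beside them. All 4 gene body bins were present in 41350 genes (87.0%), and none in 1623 genes. A level was obtained for 46231 upstream flanks, 45125 gene bodies and 46152 downstream flanks, and all 12 bins were present in 35774 genes (75.3%). The read depth behind the values is unknown, so that no interval can be given for a gene and a value of 0 cannot be told from thin coverage.

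Genes without any value clustered in part along the chromosomes. There were 177 such genes, in 106 stretches of consecutive genes, and 72 of the stretches were single genes. The longest covered 9 genes on A03 (BraA03g007580.4.1C to BraA03g007660.4.1C), followed by 8 genes on A09 (BraA09g001620.4.1C to BraA09g001690.4.1C) and 6 genes on A04 (BraA04g010400.4.1C to BraA04g010450.4.1C). A stretch of 5 genes was found on each of A01 (from BraA01g000050.4.1C to BraA01g000090.4.1C), A05 (from BraA05g000110.4.1C to BraA05g000150.4.1C) and A07 (from BraA07g003310.4.1C to BraA07g003350.4.1C). Per chromosome, bins without a value made up 4.34% on A01, the most complete, and 7.72% on A08, the least complete.

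Gene bodies carried less methylation than either flank. Upstream flanks had a mean level of 8.01% ± 0.476, gene bodies of 5.50% ± 0.410 and downstream flanks of 7.16% ± 0.497, where the error is the SD of the 10 chromosome means within the library and not a replicate error. Medians were lower, at 4.33%, 1.48% and 2.94%. In each region the mean lay above the median, so that a minority of genes with high levels raised it.

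The profile along the genes fell towards the gene start, rose inside the gene and rose again downstream. Mean levels were 8.17%, 8.31%, 8.30% and 6.66% in bins 1 to 4, then 4.83%, 5.36%, 5.64% and 5.34% in bins 5 to 8, and 6.05%, 7.12%, 7.41% and 7.46% in bins 9 to 12. The first gene body bin was the lowest and an upstream bin the highest on 10 of 10 chromosomes, and the gene body had its maximum in bin 7 on 10 of 10. Outermost upstream bin and first gene body bin differed 1.69-fold in means and 6.40-fold in medians, which were 2.86% and 0.446%. The drop across the gene start, from bin 4 to bin 5, was 1.82 points. Around the gene end the step from bin 8 to bin 9 was smaller, a rise of 0.702 points in means, and medians there went from 1.26% to 1.07%. The first gene body bin also had the most values at exactly 0, 32.8% compared with 19.9% in bin 1.

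**Figure D1:**
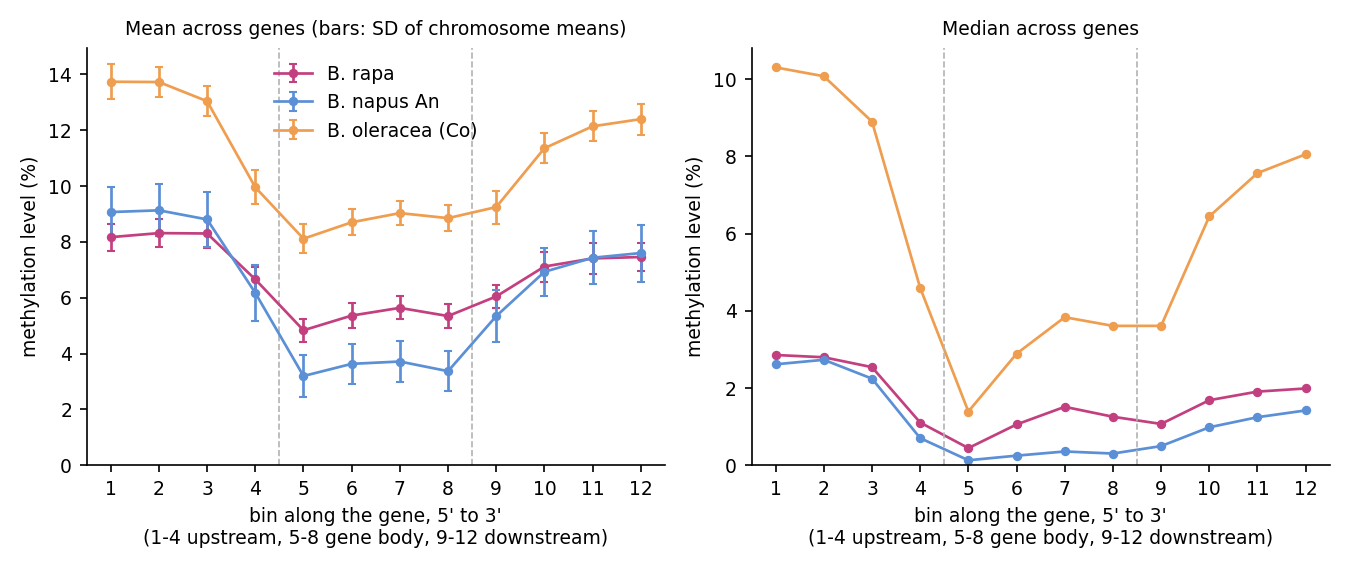
Mean (left, bars are the SD of chromosome means) and median (right) methylation level in percent in the 12 bins along genes of *B. rapa*, the An subgenome of *B. napus* and *B. oleracea* (Co), 1 library each. The mean was lowest in bin 5 in each of these genomes.

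Most gene bodies had low levels and a small group had high levels. Since contexts are pooled and the conversion rate is unknown, a low level does not show that a gene body is unmethylated. Of the 45125 gene bodies, 56.4% were below 2% and 11.6% were at exactly 0, while the top 10% of gene bodies started at 19.3% and the top 1% at 39.1%. A level of 20% or more, called highly methylated here, was found in 4220 gene bodies, or 9.35%. Over all 4 genomes and subgenomes of the series the share was 11.3%. The threshold lies on a slope without a gap, with 789 gene bodies from 18% to 20% and 722 from 20% to 22%. At 10% or more there were 18.6% of gene bodies, at 30% or more 3.30%, and only 134 genes reached 50%.

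The flanks were distributed otherwise. Intermediate levels of 10% to 20% were held by 20.6% of upstream and 18.2% of downstream flanks, but by 9.26% of gene bodies. High flanks numbered 5494 upstream (11.9%) and 4798 downstream (10.4%). Above 40% the order turned, with 0.909% of gene bodies, 0.597% of upstream and 0.520% of downstream flanks. Gene bodies were therefore more often at either extreme than the flanks beside them.

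**Figure D2:**
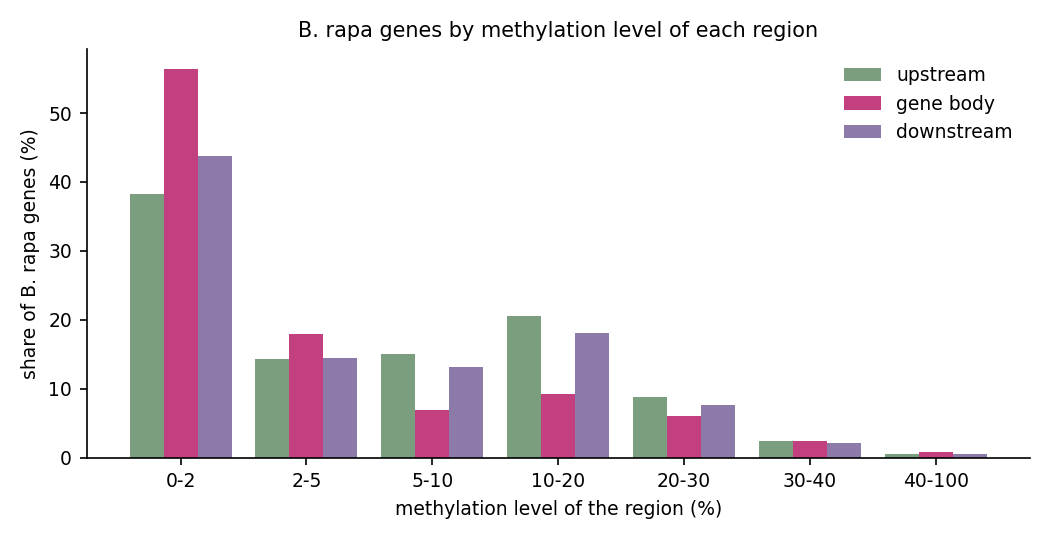
Share of *B. rapa* genes (vertical axis, %) by methylation level class (horizontal axis, %) for the upstream flank, the gene body and the downstream flank. Gene bodies lead the class below 2%, with 56.4%, and are less frequent than flanks between 5% and 30%.

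High methylation of a gene body and of its flanks coincided only in part. Among the 43629 genes with a level in all 3 regions, 33738 (77.3%) were high in none. Only the upstream flank was high in 3219 genes, only the downstream flank in 2332 and only the gene body in 1665 (3.82%), whereas 570 (1.31%) were high throughout. Single high regions thus outnumbered genes high in every region. When both flanks were high, 58.2% of 979 gene bodies were high too, and when neither was, 4.70% of 35403. A high downstream flank was accompanied by a high gene body in 35.8% of 4267 genes, and a high upstream flank in 26.5% of 4938 genes. Across genes, which are not independent and share the library, Spearman's rho was 0.295 for upstream flank and gene body, 0.316 for gene body and downstream flank and 0.256 for the flanks. All 3 regions were below 2% in 6937 genes (15.9%).

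The genes nearest to the medians of 4 other combinations give examples of such patterns. These combinations used the gene body level and the mean of the flanks, each at 20% or more or below 2%. Only genes with values in all 12 bins, 35774 in number, could be named. Most genes belonged to none of the 4 combinations, since their levels lay in between. The classes above took each flank separately, so their gene counts cannot be compared with those below. The first, BraA03g063900.4.1C, was methylated throughout, at 23.6% upstream, 27.01% in the gene body and 24.9% downstream, and stood for 694 genes. Its lowest bin was bin 4, at 13.8%, just upstream of the gene start, with 17.9% in bin 5. The mean over all genes was lowest in bin 5, inside the gene.

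The second, BraA05g026690.4.1C, had methylation confined to its body. The 4 upstream bins were between 0.191% and 0.828%, the gene body bins were 21.8%, 34.5%, 22.6% and 21.6%, and downstream the level fell from 4.96% to 0% in 4 bins. Its boundaries coincided with the annotated gene ends, and only 98 genes fell in this class.

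The third, BraA07g003570.4.1C, showed the opposite pattern and stood for 346 genes. Its outermost upstream bin was 31.9% and its outermost downstream bin 40.2%, while the gene body bins were 0%, 0%, 0.338% and 0.554%. Methylation there declined towards the gene from bin 1 on the upstream side and from bin 11, at 41.3%, on the downstream side.

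The fourth, BraA07g037480.4.1C, represented the common state, shared by 8196 genes. Each of its 12 bins was below 1%, with 0.417% upstream, 0.353% in the gene body and 0.409% downstream. The files and the reference table gave no name or function for these identifiers, since 0 of the 47521 matched.

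Among genes with values in all 4 gene body bins, the most strongly methylated gene body on each chromosome ranged from 51.4% (BraA09g035460.4.1C) to 88.9% (BraA01g008870.4.1C). In BraA01g008870.4.1C the gene body bins were 91.3%, 95.2%, 86.1% and 83.2%, the upstream flank was 3.23% and the downstream bins fell from 46.0% to 13.1%. In BraA07g000890.4.1C the body was 63.4% beside a downstream flank of 1.07%. None of the 10 genes had both flanks at 20% or more, which held for 979 of the 43629 genes with 3 region levels. As that share is small, the 10 genes show no difference from it. BraA03g054870.4.1C had no upstream level, and BraA05g022770.4.1C came close, with flanks of 21.0% and 19.9%. No UTR was annotated in 10 of 10, compared with 94.7% of all high gene bodies and 54.3% of all genes. Of the 10, 5 had 1 or 2 exons, and among all 47521 genes 6262 had 1 exon and 9639 had 2. These 10 were chosen for their level, so the values describe the extremes only.

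All 10 chromosomes showed the same order of the 3 regions. Gene body means ran from 4.83% on A03 to 6.01% on A05, upstream means from 6.99% on A03 to 8.63% on A09, and downstream means from 6.21% on A03 to 7.78% on A01. A03 was the lowest in every region. Highly methylated gene bodies made up 7.69% of genes on A03 and 10.3% on A05, with the other chromosomes in between. The range of gene body means, 1.18 points, was small beside the difference between genes, whose SD was 9.13 points. A01 and A09, at 5.92% and 5.91%, lay directly below A05, closer to it than the SD of chromosome means.

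**Figure D3:**
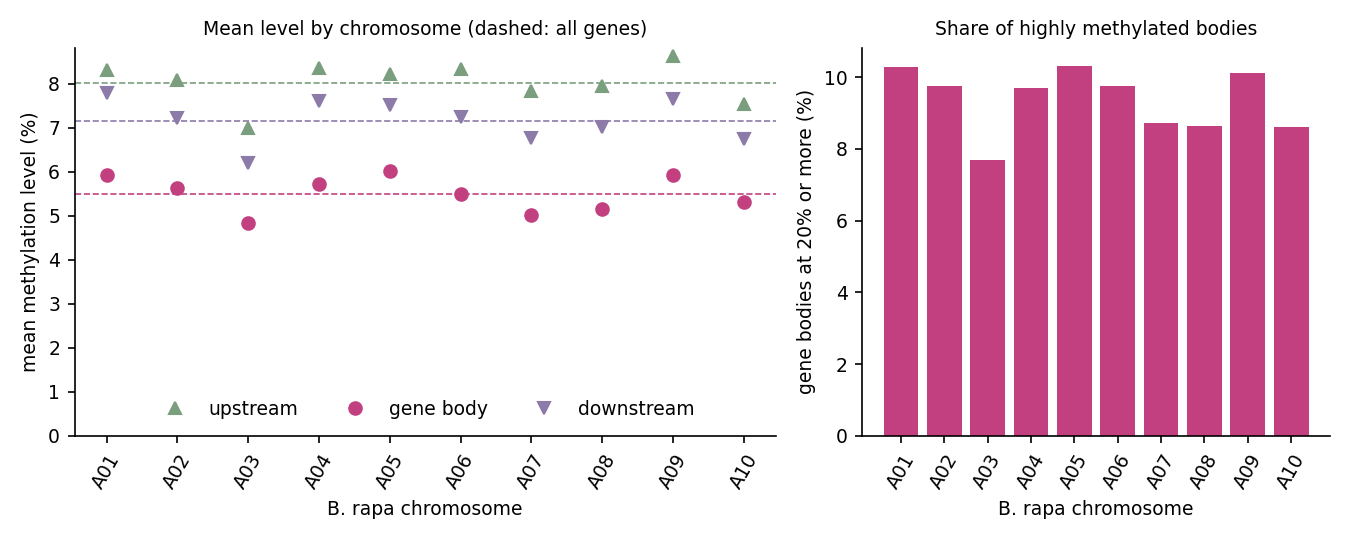
Left, mean methylation level (%) of the upstream flank, gene body and downstream flank on each *B. rapa* chromosome, with dashed lines for all genes. Right, share of gene bodies at 20% or more (%), which was lowest on A03 (7.69%) and highest on A05 (10.3%).

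Methylation varied far more along each chromosome than between chromosomes. Genes were taken in identifier order in 475 windows of 100 genes (a remainder was joined to the last window or kept as a shorter one), and window means of the gene body ran from 1.298% to 19.97% with a median of 4.54%. Every chromosome had a broad rise, and its top window exceeded its lowest by 5.70-fold on A04 to 11.5-fold on A03. Positions below are shares of the gene order, because the files give no coordinates.

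The rise lay in the middle of A01, A02, A05, A06 and A09, whose top windows were at 58.5%, 63.5%, 50%, 49.0% and 47.1% of the gene order. It lay towards the start of A04, A07, A08 and A10, at 27.1%, 14.8%, 20.3% and 27.9%. On A03 it stood at the end, at 97.8%. The A05 window from BraA05g022030.4.1C to BraA05g023020.4.1C was the highest, with 19.97% in gene bodies, 19.1% upstream and 20.1% downstream, and 30.2% of its bins had no value. The A09 window from BraA09g032010.4.1C to BraA09g033000.4.1C followed with 19.7% in gene bodies, 19.6% upstream and 20.7% downstream. In both windows the usual difference between gene body and flanks was not seen. Both were picked for their gene body level, so this follows in part from the choice.

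**Figure D4:**
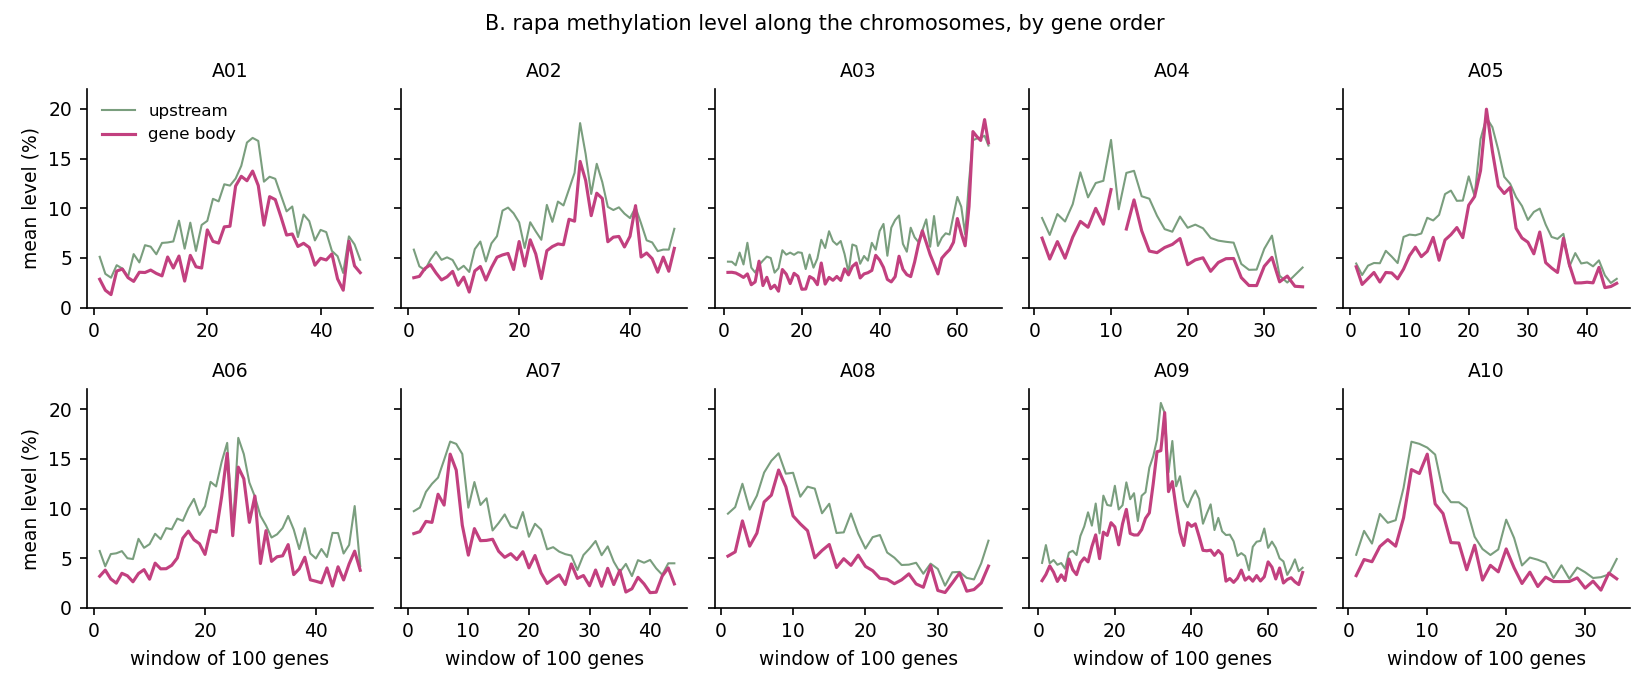
Mean methylation level (%) of gene bodies and upstream flanks in consecutive windows of 100 *B. rapa* genes, with a panel for each chromosome. Each chromosome has a broad rise, with gene body peaks between 11.9% on A04 and 19.97% on A05, and the gap on A04 is a window with too few gene body levels.

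Gene body means of 10% or more were reached in 51 windows (10.8%), which formed 1 unbroken run on 6 of the 10 chromosomes. These windows were picked by gene body level, so that their share of high gene bodies, 28.4% compared with 7.21% elsewhere, follows from the choice. Other properties moved with it. Genes without an annotated UTR made up 73.6% of their genes and 52.0% elsewhere, and bins without a value 10.97% and 5.16%, and the part of coverage in the raised levels was not tested. Window means of gene body and upstream flank rose and fell together (Pearson's r = 0.927 over windows, which share the library). The upstream flank peaked in the same or the next window as the gene body on 8 of 10 chromosomes. An A04 window next to the top, from BraA04g010010.4.1C to BraA04g011000.4.1C, had 53.6% of its bins without a value and too few gene bodies for a level.

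Neighbouring genes resembled each other weakly. Spearman's rho between the gene body levels of adjacent genes was 0.183, and it was 0.114 for genes 10 apart and 0.0877 for genes 100 apart. For upstream flanks the values were 0.315, 0.171 and 0.164. The higher value between adjacent flanks involves pairs whose flanks may cover the same sequence.

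The annotated gene structure separated high from low gene bodies better than the chromosome did. Genes without any annotated UTR (25816, or 54.3%) had a mean gene body level of 8.37% ± 0.657 (SD of chromosome means), and genes with UTRs at both ends (18931) had 2.39% ± 0.221. The chromosome means ran from 7.33% to 9.46% and from 2.09% to 2.72%, without overlap. High gene bodies made up 16.9% of the genes without UTRs and 1.03% of the genes with both. Conversely 3997 of the 4220 high gene bodies (94.7%) had no UTR, compared with 52.3% of all gene bodies with a level. Medians lay closer together, at 1.94% and 1.37%, so the difference in means came mostly from a minority of the genes without UTRs. Coverage moved with this split, since 12.2% of gene body bins had no value in genes without UTRs and 1.26% in genes with both, and its part in the difference was not tested.

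Profiles of the groups differed in shape. With both UTRs annotated, the mean fell from 7.04% in bin 1 to 1.39% in bin 5, rose to 3.04% in bin 7 and was 5.49% in bin 12. Without UTRs it stayed between 7.87% and 9.35% in all 12 bins, with 8.12% in bin 5. The dip in the mean was thus shallower where no UTR was annotated, and medians in those genes dropped from 4.20% in bin 1 to 0.979% in bin 5. Inside the windows of 10% or more the split persisted, with gene body means of 16.6% without UTRs and 4.59% with both. Genes with both UTRs had upstream flanks of 14.3% in those windows and 6.22% elsewhere, and gene body means of 4.59% and 2.25%. The windows were picked by gene body level, to which these genes contribute, so their higher gene bodies there follow in part from the choice. Their gene body medians were 2.18% inside the windows and 1.34% elsewhere.

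From 2 exons on, the mean and the median moved in opposite ways with exon number over all genes. Genes with 1 exon had a median gene body level of 0.407%, and medians rose through 1.10%, 1.54%, 1.74% and 2.04% to 2.22% in genes with 20 or more exons. The mean was 4.01% with 1 exon, highest at 7.12% with 2 exons and then declined to 2.76%. High gene bodies were most frequent with 2 exons, 14.3%, and made up 0.649% of genes with 20 or more. Genes with 20 or more exons thus had a low mean and few bodies at exactly 0, 0.108% compared with 28.8% of genes with 1 exon. Bodies below 2% were still frequent among them, at 42.5% compared with 72.2% of genes with 1 exon. Among genes with both UTRs the median rose from 0.426% with 1 exon to 2.34% with 20 or more. The mean of these genes did not decline throughout, with 2.97% at 1 exon, 2.14% at 3 to 5 and 2.62% at 20 or more. Among genes without UTRs the median did not rise throughout. It was 0.397% at 1 exon, had a maximum of 3.42% at 3 to 5 exons and was 1.89% at 20 or more. The means of these classes were 5.23%, 9.66% and 3.10%. Gene length was not used here, since the files give no coordinates.

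**Figure D5:**
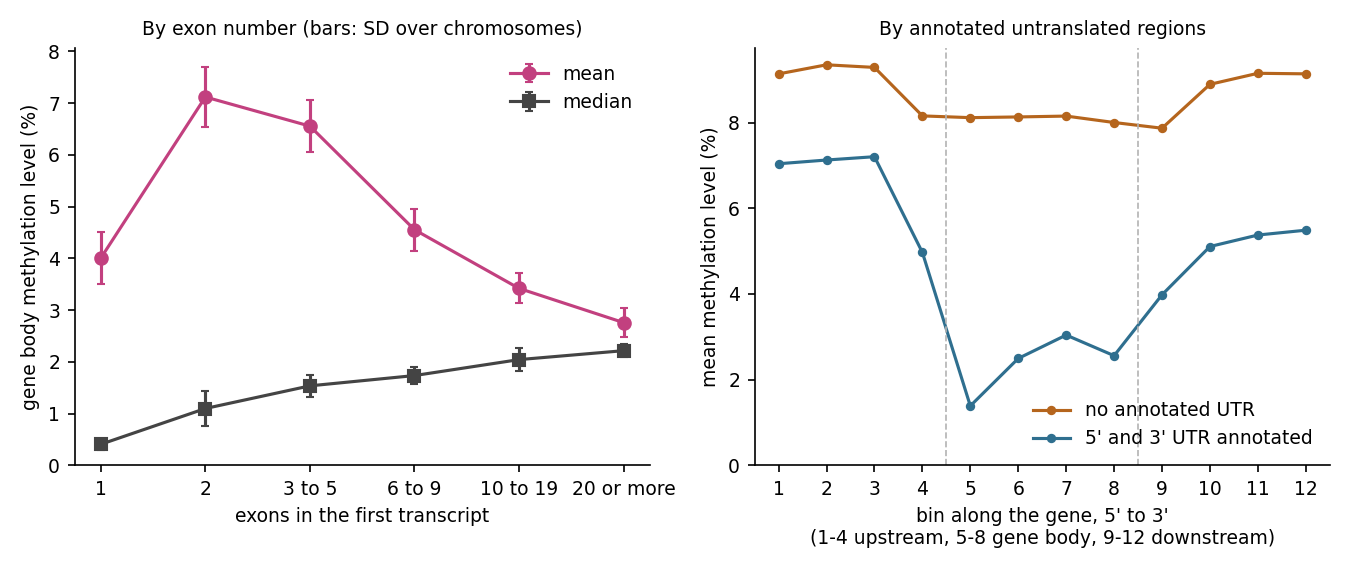
Left, mean and median gene body methylation level (%) by the number of exons of the gene's first listed transcript, with bars for the SD over chromosomes. Right, mean level (%) in the 12 bins for genes with no annotated UTR and genes with both, which were 8.12% and 1.39% in bin 5.

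Within genes of 5 or more exons the outer exons had lower means than the inner ones. The first exon had a mean of 2.46% ± 0.287, the second 2.91% ± 0.270, inner exons 3.62% ± 0.292 and the last exon 3.23% ± 0.352 (SD of chromosome means). First and second exons, second and inner exons, and inner and last exons each differed by more than the larger SD of the pair. In genes with 10 or more exons the mean climbed from 1.33% in exon 1 to 4.11% in exon 6, and the last exon was at 2.22%. Mean levels were thus lower at both transcript ends than between them. Medians did not show this at the 3′ end, since in genes of 5 or more exons the median was 0.263% in the last exon and 0% in inner exons, with 45.8% and 53.5% of values at 0. In genes of 2 to 4 exons no such gradient was seen, with 5.49% in the first and 5.91% in the last exon, a difference below the SD of chromosome means of 0.554.

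Beside the An subgenome, *B. rapa* had more methylated gene bodies and similar flanks. All genes with a level were used on each side, without pairing of genes. An gene bodies had a mean of 3.65% and a median of 0.536%, and 6.03% were high. The difference was 1.85 points and *B. rapa* was the higher on 10 of 10 homologous chromosomes, by 0.344 to 2.54 points. In the upstream flank it was -0.450 points, within the SD of An chromosome means of 1.04, and downstream 0.168 points. The body was thus the region where these libraries differed beyond their chromosome spread. With the libraries scaled to a common mean, the upstream difference turned to 0.558 points and that of the gene body was 2.79 points. The *B. napus* mean used for scaling covered An, Cn and unplaced genes, so these 2 values depend on Cn genes too. Bins 1 and 5 differed 2.84-fold in An and 1.69-fold in *B. rapa*. Along the chromosomes, the An top window lay within 10 points of the *B. rapa* position on 8 of 10, and it was farthest on A05, by 13 points.

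In *B. oleracea* all regions were higher, at 12.7% upstream, 8.81% in the gene body and 11.4% downstream, and 18.4% of gene bodies were high. The fold between bins 1 and 5 was 1.69 in both species, so their profiles differed in height more than in shape. When each library was scaled to the same mean over all its bins, the differences from *B. oleracea* shrank to 0.176, 0.0531 and 0.127 points. Differences between whole libraries, species included, cannot be told apart with 1 library each.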

How the data were processed

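Young leaves gave 1 BS-seq library per species. The authors trimmed reads with Fastp v0.22.0, mapped them with BatMeth2 and deposited a methylated fraction between 0 and 1 for 12 bins of each annotated feature. Mapping parameters, coverage minimum, cytosine context and conversion rate are not given in the sources used here, and the depth is unknown. ZS11 is the mapping genome named in the methods, but each library's rows carry identifiers of its own species, and reads lost in mapping to another genome could appear as missing values. Fractions were converted to percent. Region levels needed at least 2 of 4 bins, and genome levels are means across genes. Gene order followed the identifiers.

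No test was run, since each species had 1 library. The members, thresholds and gene lists were chosen with earlier results of these data known. Genes were named by rule. For 4 combinations of gene body and mean flank (20% or more, or below 2%), the gene with all 12 bins nearest to the class medians was named. Added to these were the highest gene body with 4 bins on each chromosome and the ends of the longest stretches without a value. Exons were counted in the first listed transcript of a gene, UTRs over all its transcripts, and exons were ordered in the 98.7% of first transcripts with 2 or more exons whose direction was found. The alternatives were the median, other rules for missing bins and zeros, other thresholds, windows of 50 genes and scaling of the libraries. The steps were tested on simulated data. Calculations used Python 3.11.15, numpy 2.4.6, pandas 2.3.3, scipy 1.17.1 and matplotlib 3.10.9.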

Additional observations from a re-analysis of the deposited data

How the results depend on the processing

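Of 80 alternative values for 19 results, 25 moved by less than the SD of chromosome means, 51 by more and 4 changed sign. For the upstream flank, gene body and downstream flank, in this order, the levels were 4.33%, 1.48% and 2.94% as medians and 7.48%, 4.75% and 6.62% in regions with all 4 bins. They were 7.46%, 4.91% and 6.65% with missing bins set to 0, and 9.67%, 6.95% and 8.63% without bins at exactly 0. In genes with gene bodies below 20% they were 7.06%, 3.06% and 5.94%, in genes with all 12 bins 7.06%, 4.46% and 6.16%, and over transcripts in place of genes 7.40%, 4.19% and 6.16%. The gene body was the lowest region under each of these. The lowest mean level, 4.83% at the gene start and 5.34% at the gene end, was 0.446% and 1.07% as a median, 3.97% and 4.49% in genes with all 12 bins, and 2.49% and 3.13% in genes with gene bodies below 20%. High gene bodies were 18.6% at a threshold of 10%, 3.30% at 30%, 7.37% with all 4 bins and 7.53% with missing bins set to 0. The chromosome range of 1.18 points was 0.570 in medians and 0.637 in genes with gene bodies below 20%.

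The gene body difference from An was 0.942 points in medians and 2.79 after the libraries were scaled to a common mean. Scaling reversed the upstream difference from An to 0.558 and the differences from *B. oleracea* to 0.176, 0.0531 and 0.127. The latter were -6.30, -2.05 and -5.29 in medians and -3.95, -1.16 and -3.18 in genes with gene bodies below 20%. The means over all bins that scaling removes were 6.73% (*B. rapa*), 10.9% (*B. oleracea*) and 7.53% (*B. napus*). The last was taken over An, Cn and unplaced genes, and scaling by An genes alone was not made. Pearson's r was 0.333 for upstream flank and gene body and 0.427 for gene body and downstream flank. Spearman's rho fell to 0.213, 0.209 and, between the flanks, 0.193 in genes with gene bodies below 20%. The lowest window was at 0.249% with 50 genes a window and 0.256% in medians. The difference between genes without and with UTRs, 5.98 points, was 0.563 in medians, 4.64 in genes with all 12 bins and 4.79 outside the windows of 10% or more, in alternatives chosen after seeing the data.

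With 1 library and no read depth, neither replicate nor counting error is known, and a coverage minimum could not be varied. Missing bins were more frequent in the windows of 10% or more and in genes without UTRs, so levels there rest on fewer values. No paired analysis was possible because each species has 1 library.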

Other observations

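Genes with several annotated transcripts had low gene bodies. The 35714 genes with 1 transcript had a mean gene body level of 6.55% and 12.4% high gene bodies. With 2 or 3 transcripts the mean was 2.40% and 0.757% were high, and with 4 or more it was 2.73% and 0.528%. The medians of these classes were 1.34%, 1.45% and 2.08%, so that typical genes with 4 or more transcripts were above those with 1.

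*B. rapa* genes with listed homoeologues in the other genomes were also low. Of the tetrads that the study lists, only the first 1998 rows were read, which cover A01 and A02, and no overlap was tested. The 1387 listed genes on A01 had a mean gene body level of 2.03%, compared with 5.92% for all genes of A01, and 0.579% of them were high, compared with 10.3%. On A02 the 611 listed genes had 1.92%, compared with 5.63%. Their upstream flanks were closer to the chromosome means, at 6.44% and 8.31% on A01 and 6.64% and 8.08% on A02. Of the listed genes on A01, 39.7% had no annotated UTR, compared with 53.7% of all genes there.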
